A study of Mus musculus with 12 samples.

Results

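The 32 genes described here encode P2 receptors, enzymes that split extracellular or luminal nucleotides, and proteins linked to ATP release, and they were taken by name from the 27670 genes measured on the arrays. Of these, 31 had a probe, with 52 probes in all, and Panx2, a pannexin gene, is not analysed here. P2rx6 carries the older name P2rxl1 in the files. A total of 30 genes were well above background, by the flag of the scanner software, on all 3 arrays of at least 1 group, and 25 were so on all 12 arrays. P2ry4, a receptor for UTP, was not well above background on any array.

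ATP that leaves a cell is a signal. It opens P2X channels, which let cations into the cell that senses it, and nucleotides also act on P2Y receptors, which couple to G proteins. Ectonucleotidases then cut ATP and ADP to AMP, and a further step turns AMP into adenosine, which acts on its own receptors and is cleared from the extracellular space by transporters such as mENT1. In the heart and kidney these genes are known from vessels, platelets, resident macrophages and tubule epithelium.

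The samples were hearts and kidneys of mENT1 knockout mice and of wild type mice, all FVB/N. Each of the 4 groups (wild type heart, knockout heart, wild type kidney, knockout kidney) held 3 arrays, labelled a, b and c, each with Cy3-labelled cRNA of 1 total RNA sample. The design text names 3 mice of each genotype, and the age, the sex and the way the knockout was made are not given in the sources used here. Between 60.6% and 70.8% of the spots of an array were well above background, and the number of arrays limits the precision.

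Values are log2 intensities after the 75th percentile of each array was set to 0, so a value of 1 lies 1 log2 unit above that percentile. They rank arrays for 1 gene and not genes against each other, because probes differ in brightness. Differences are given as log2 difference ± standard error (SE), and a gene is called where its p-value in limma, adjusted over all genes tested, was under 0.05. These are bulk tissues, in which fewer cells of a type and less RNA per cell cannot be told apart.

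Slc29a1, the gene of mENT1, stood at 3.05, 3.13 and 3.25 on the wild type hearts and at 1.28, 0.47 and 1.43 on the knockout hearts. In kidney it stood at 1.48, 1.23 and 1.60 in wild types and at -1.49, -1.33 and -1.46 in knockouts. Whether its probe lies in the deleted part is not given in the files. The deposited table of processed values has the genotypes the other way round, so each direction between genotypes rests on the labels of the scanner files. Summed cardiomyocyte markers lay at 8.47 to 9.17 on the hearts and at -2.43 to -1.66 on the kidneys, and summed proximal tubule markers at 8.45 to 9.25 on the kidneys and -1.13 to -0.37 on the hearts. Several knockout arrays stood apart. Xist, an RNA made from the silenced X chromosome of female cells, was above background on 3 arrays, those of knockout hearts a and b and of knockout kidney a. The knockout heart and kidney lettered b thus differ in it. No other matching of the knockout hearts with the knockout kidneys would make every pair alike in it. The median of 9 T cell and thymocyte markers was 3.30 and 4.57 on knockout hearts a and b, -3.51 on knockout heart c and -4.98 to -4.61 on the wild type hearts. Lung markers were high on knockout heart a, with a median of 5.27, and 5 of 5 liver markers were called higher in the knockout hearts.

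**Figure D1:**
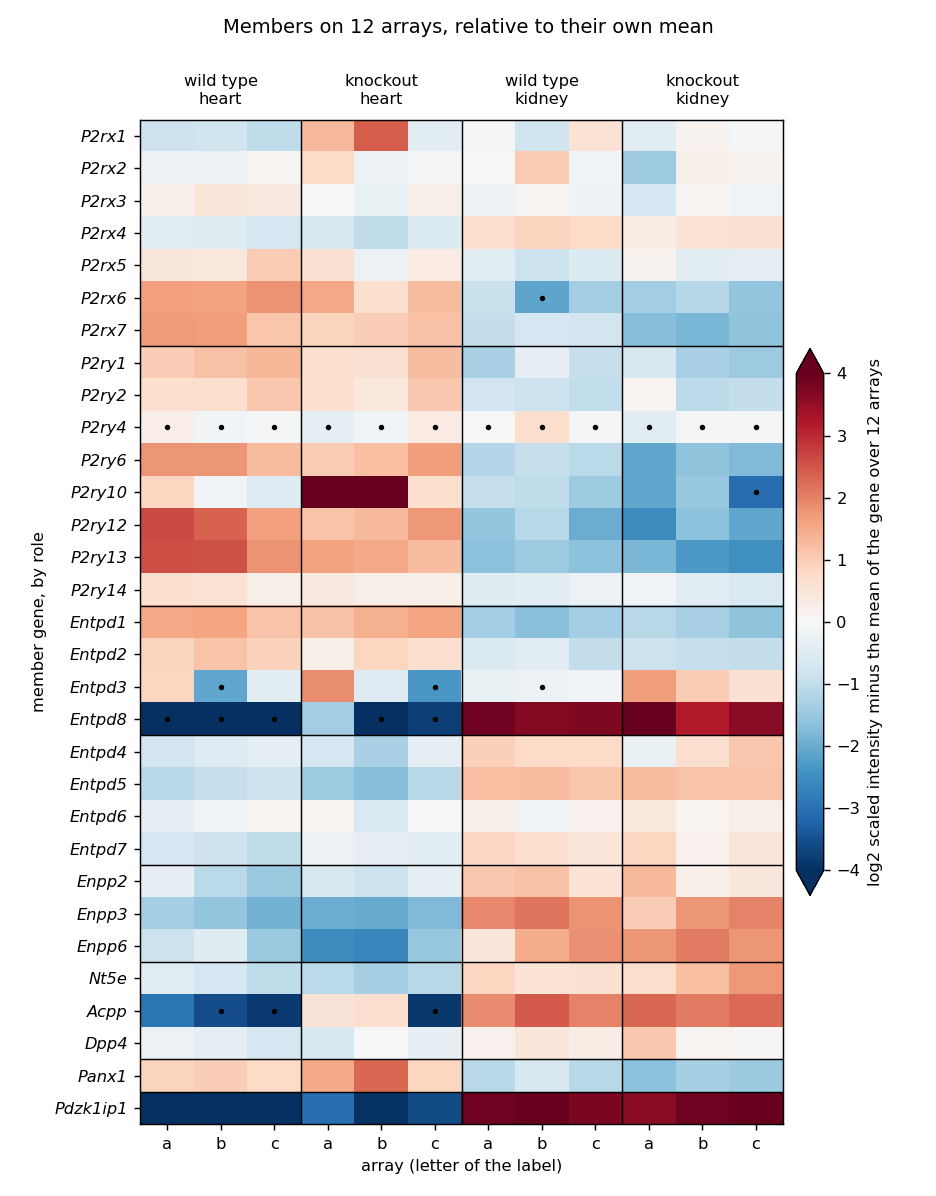
Heat map of 31 genes (rows, by role) on 12 arrays (columns). The colour is the log2 scaled intensity minus the mean of that gene over the 12 arrays, limited to -4 and 4, and a dot marks an array on which the probe was not well above background. Entpd8 and Pdzk1ip1 separate the tissues by colour on every array, and P2ry10 stands out on knockout hearts a and b.

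The tissues differed first. No slide held both tissues of the same genotype, so slide and tissue cannot be told apart in these comparisons. In wild type mice 26 of the 29 genes tested were called between heart and kidney, where 64.9% of all genes tested were called. Of these, 14 were higher in heart (32.3% of all genes) and 12 higher in kidney (32.7%). The receptors leaned to the heart, with 11 of 14 called higher there and 1 higher in kidney, while the nucleotide-splitting enzymes lay on both sides. The median difference of the 29 genes was -0.23, and that of all genes -0.01. Its sign was not stable, at 0.115 with the filter on every array and 0.083 without wild type heart b. Entpd8 and Acpp were tested only because they were bright in kidney, and P2rx6 because it was bright in heart. Among the 26 genes well above background on all 6 arrays, 23 were called, against 63.9% of all genes under that filter. With another background correction (normexp, with an offset of 50 added to each intensity), 9 of the 26 called differences were over 1.5 times smaller on the log2 scale. These were P2rx3 (0.06), P2rx6 (1.33), P2ry10 (0.36), P2ry12 (1.77), P2ry13 (1.96), P2ry14 (0.49), Entpd7 (-0.78), Entpd8 (-2.89) and Acpp (-2.41), and the calls of P2rx3 and P2ry10 were lost. The values reported without that correction follow.

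**Figure D2:**
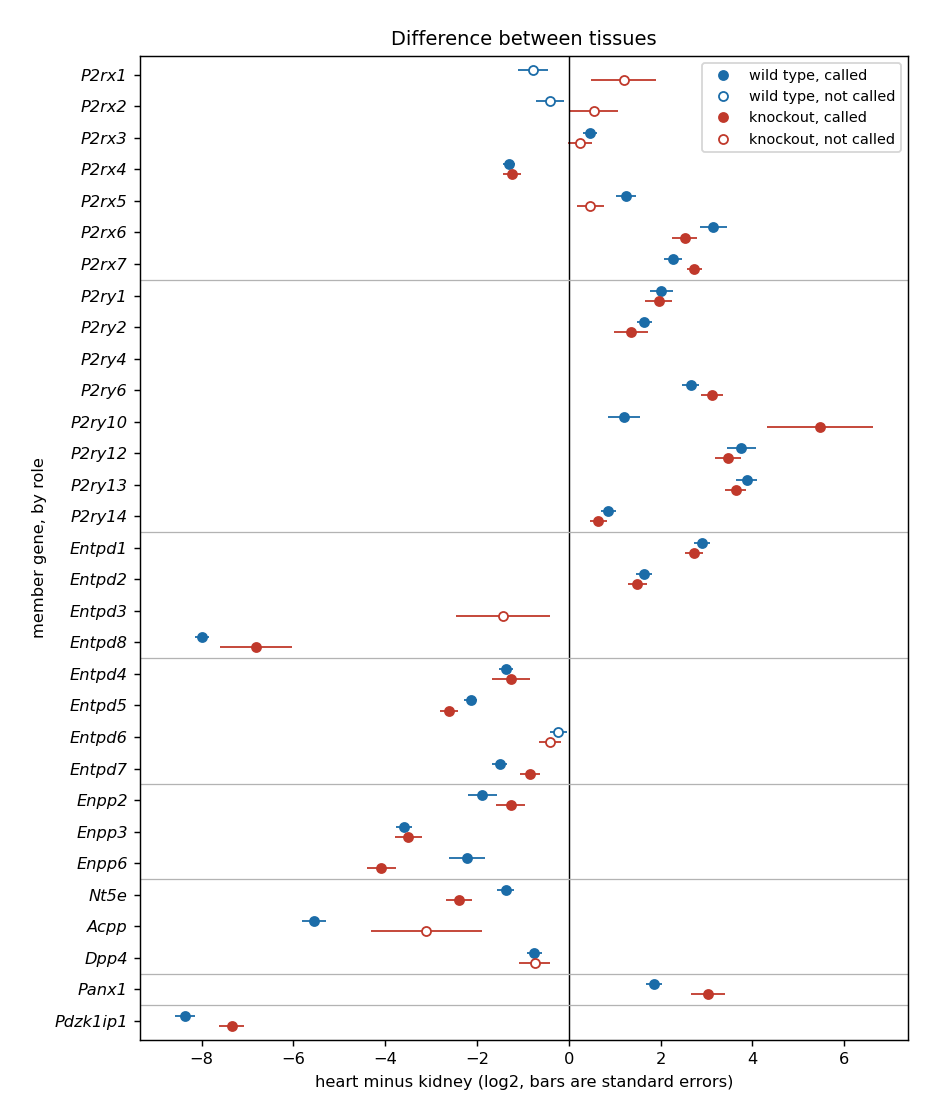
Heart minus kidney (log2, x axis) for each gene (y axis, by role) in wild type (blue) and knockout mice (red). Points are fitted differences over 3 arrays a group, bars are SE, and filled points were called. All 7 P2Y receptors drawn lie right of 0 in both genotypes, and Pdzk1ip1 and Entpd8 lie farthest left.

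All 7 P2Y receptors that could be tested were higher in wild type heart, with a median difference of 2.02. P2ry13 and P2ry12, receptors for ADP, gave the largest differences of the 7, whereas with normexp P2ry6 did (2.54). P2ry13 was at -1.23, -1.24 and -2.02 on wild type hearts a, b and c and at -5.44, -5.26 and -5.43 on the wild type kidneys, a difference of 3.88 ± 0.23 (14.7-fold, adjusted p = 6.9e-06). P2ry12, known from platelets and microglia, was at -1.22, -1.52 and -2.23 in heart and at -5.42, -4.97 and -5.88 in kidney (3.76 ± 0.32, adjusted p = 4.1e-05). In both genes heart c was the lowest of the 3 wild type hearts and still lay far above each kidney. The probes of this pair start with the sequences shown here, since they are the parts of the transcripts that these values stand for. They lie at chr3:59336236-59336295 (P2ry13) and chr3:59344780-59344839 (P2ry12) of build mm7, both on the minus strand, and only the first 30 of 60 bases are printed.
P2ry13: gaatcacttgctaatcttgacctttacaaa
P2ry12: tgcacattaagatggtagaggtttaaaagg

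The receptor for UDP, P2ry6, stood at 2.09, 2.11 and 1.58 on the wild type hearts and at -0.85, -0.60 and -0.73 on the wild type kidneys. The groups were far apart (2.65 ± 0.18, 6.29-fold, adjusted p = 1.3e-05). P2ry1, a receptor for ADP, was higher in heart by 2.02 ± 0.26 and P2ry2, a receptor for ATP and UTP, by 1.65 ± 0.17. P2ry14, which senses UDP-glucose, differed by 0.86 ± 0.16 (adjusted p = 0.0025). P2ry10, grouped with the P2Y receptors by sequence and known from lymphocytes as a receptor for a lysophospholipid, was at -3.24, -4.21 and -4.64 in wild type heart and at -5.03, -5.12 and -5.53 in wild type kidney. Its heart arrays varied more among themselves than those of the other P2Y genes, and the difference of 1.20 ± 0.35 (adjusted p = 0.020) lost the call without wild type kidney c (adjusted p = 0.058) and with normexp (adjusted p = 0.15).

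The P2X channels were less uniform. P2rx3, P2rx5, P2rx6 and P2rx7 were called higher in wild type heart, P2rx4 was called higher in kidney, and P2rx1 and P2rx2 were not called. P2rx6, a subunit that works mainly in mixed channels, was at -2.57, -2.58 and -2.40 in heart and at -5.09, -6.30 and -5.60 in kidney, with the probe above background on 2 of 3 wild type kidneys (3.15 ± 0.29, adjusted p = 6.4e-05). P2rx7, the channel of macrophages that also opens the way to inflammasome activation, was at 1.41, 1.38 and 0.83 in heart and at -1.25, -0.96 and -1.01 in kidney (2.28 ± 0.20, 4.85-fold, adjusted p = 4.2e-05). P2rx4, common in epithelium and endothelium, ran the other way, at -0.16 ± 0.12 in heart and 1.14 ± 0.12 in kidney (SD, n = 3 each), a difference of -1.30 ± 0.14 (adjusted p = 1.3e-04). P2rx5 differed by 1.25 ± 0.21. The smallest called difference was that of P2rx3, a channel of sensory neurons, at 0.46 ± 0.15 (adjusted p = 0.035). Without wild type heart b or c, or wild type kidney a or c, its call was lost (adjusted p = 0.13, 0.075, 0.11 and 0.091). It was also lost with normexp, quantile scaling, median scaling and no filter (adjusted p = 0.78, 0.084, 0.14 and 0.082). P2rx1, a channel of platelets and smooth muscle, gave -0.78 ± 0.33 (adjusted p = 0.074; -1.13 and adjusted p = 0.0065 without wild type kidney b) and P2rx2 -0.42 ± 0.31 (adjusted p = 0.27).
P2rx7: ttcacttctctctttaaagggaaccatctt
P2rx4: catttttacattttacaggttcattgtaca

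These are the first 30 bases of the P2rx7 and P2rx4 probes, shown because the 2 genes are neighbours that differed between the tissues in opposite directions. The probes lie at chr5:121918407-121918466 and chr5:121962825-121962884 of mm7, both on the plus strand and 44.4 kb apart. Position was not a criterion in choosing the genes, yet 7 pairs of probes lay within 500 kb of each other. P2ry12 and P2ry13, 8.5 kb apart, had wild type differences of 3.76 and 3.88, whereas P2ry14, 93.0 kb from P2ry13, had 0.86. P2ry2 and P2ry6, 59.3 kb apart on chromosome 7, gave 1.65 and 2.65. P2rx1 and P2rx5, 157.4 kb apart on chromosome 11, gave -0.78, which was not called, and 1.25. Entpd2 and Entpd8, 315.9 kb apart on chromosome 2, gave 1.64 and -8.00. Close neighbours thus included pairs with the same direction and pairs with opposite directions.

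Marker genes of several cell types differed between the tissues as well. In wild type mice 7 of 7 macrophage markers were called higher in heart (median 2.64), as were 4 of 4 platelet markers (3.07), 5 of 5 endothelial markers (2.40) and 4 of 4 smooth muscle markers (2.39). Of the T cell and thymocyte markers 3 of 7 tested were higher in heart and 1 lower. Called higher in heart were also 4 of 4 B cell markers (1.74), 4 of 4 fibroblast markers (2.88) and 2 of 2 nerve markers tested. The part of these cell types in the receptor differences was not tested.

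Of the surface NTPDases, which cut ATP and ADP outside the cell, 2 were higher in heart and 1 in kidney. Entpd1 (CD39), the enzyme of endothelium and leukocytes that takes ATP to AMP, was at 0.60, 0.61 and 0.19 on the wild type hearts and at -2.36, -2.64 and -2.31 on the wild type kidneys (2.90 ± 0.17, 7.48-fold, adjusted p = 7.0e-06). Entpd2, which prefers ATP and leaves ADP, differed by 1.64 ± 0.18 (adjusted p = 1.4e-04). Entpd8 was at -0.72, -0.94 and -0.90 on the wild type kidneys and not well above background on any wild type heart. Its kidney signal was at least 61.4-fold higher (group means -0.85 and -8.85, adjusted p = 4.9e-08). Such a bound sets the bright group against the dimmest signal that the hearts could still measure, and it holds for the values without normexp, with which the difference was -2.89. Entpd3 was above background on 2 of 3 arrays in each wild type tissue and was not tested there.
Entpd1: gataaatatgtgctaaagccaaagagtcct
Entpd8: tgtttgtgttgtcaaccttgtgatccacca

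The intracellular relatives pointed the other way from Entpd1 and Entpd2. Entpd4, Entpd5 and Entpd7, which act in the lumen of the Golgi, the endoplasmic reticulum and other internal membranes, were called higher in kidney. Entpd5 was at 2.43, 2.62 and 2.71 on the wild type hearts and at 4.76, 4.77 and 4.64 on the wild type kidneys (-2.14 ± 0.14, 4.40-fold, adjusted p = 9.0e-06). Entpd7 differed by -1.50 ± 0.16 and Entpd4 by -1.37 ± 0.15. Entpd6 gave -0.23 ± 0.18 and was not called (adjusted p = 0.30). The Entpd1 and Entpd8 probes, printed above as the pair with the largest contrast among the surface enzymes, lie at chr19:40633542-40633601 and chr2:25092540-25092599 of mm7, on the plus strand.

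All 3 ENPP genes were higher in wild type kidney, although Enpp2 and Enpp6 act mainly on lipids. Enpp3, which cuts ATP to AMP at the cell surface, was at -1.56, -1.78 and -2.09 in heart and at 1.75, 1.96 and 1.62 in kidney (-3.59 ± 0.18, adjusted p = 3.0e-06). Enpp6, a phosphodiesterase for choline lipids, was at -3.44, -3.07 and -4.05 in heart and at -2.08, -1.09 and -0.74 in kidney (-2.22 ± 0.39, adjusted p = 0.0019). Enpp2 (autotaxin), which makes the lipid lysophosphatidic acid, differed by -1.88 ± 0.32 (adjusted p = 0.0015). For none of the 3 did the wild type groups overlap.

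Nt5e and Acpp, enzymes of the last step, were also higher in kidney, as was Dpp4, which is not part of that step. Nt5e (CD73), which turns AMP into adenosine, stood at 0.41, 0.17 and -0.15 on the wild type hearts and at 1.70, 1.38 and 1.47 on the wild type kidneys (-1.37 ± 0.18, 2.59-fold, adjusted p = 4.5e-04). Acpp, an acid phosphatase that can also release phosphate from AMP, was at -6.12, -6.74 and -6.99 in heart, above background on 1 of 3 arrays, and at -1.28, -0.72 and -1.21 in kidney (-5.55 ± 0.26, adjusted p = 2.3e-06). Dpp4, a surface peptidase of the tubule brush border and of lymphocytes, differed by -0.75 ± 0.16 (adjusted p = 0.0050). In wild types the chain from ATP to adenosine was thus measured with Entpd1 and Entpd2 higher in heart and with Enpp3 and Nt5e higher in kidney. Entpd8 and Acpp were also higher in kidney, but they were tested only because they were bright there. Their probes were well above background on 0 and 1 of 3 wild type hearts, so their differences are not measured levels on both sides.
Nt5e: accgtttaaaattccaatccttttatgaag
Enpp3: cccacgtttgaaaccattatttgaatgaat
Acpp: agtcaagtaaaacaaacacaacaggtcacc

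These are the starts of 3 of the probes behind the kidney side of that chain, at chr9:88472705-88472764 (plus strand), chr10:24526118-24526177 and chr9:104004416-104004475 (both minus strand) of mm7. Panx1, a membrane channel that lets ATP out of cells, was higher in heart, at 1.57, 1.65 and 1.47 against -0.45, 0.03 and -0.44 (1.85 ± 0.17, 3.61-fold, adjusted p = 6.5e-05). Pdzk1ip1 (MAP17), a small protein of the proximal tubule that partners the glucose carrier of that segment and is not itself a channel, was far higher in kidney. It was at -1.80, -2.05 and -1.77 on the wild type hearts and at 6.33, 6.91 and 6.22 on the wild type kidneys. Its spots were saturated on all 6 kidney arrays, so the kidney signal was at least 329-fold higher (-8.36 ± 0.21, adjusted p = 1.3e-07). This bound holds for the values without normexp, with which the difference was -8.03. Summed proximal tubule markers moved with Pdzk1ip1, as given above for the tissue check.
Pdzk1ip1: tctactgaaacaagctgactccctcacctc

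This probe lies at chr4:114470074-114470133 of mm7, on the plus strand. A further 21 probes stood for members, 11 of them well above background on all 12 arrays. In wild types 10 of these 11 had the same direction between tissues as the probe reported, and the exception was a probe of Entpd6, whose difference was not called. Between genotypes the 11 probes had the direction of the reported probe in heart, and 10 did in kidney, where the exception was Enpp6. The other pathway genes were adenosine receptors and enzymes, connexins, further release channels, pyrophosphate genes and the inflammasome and phospholipase C branches downstream of the receptors. Of the 42 such genes with a probe, 39 were tested in wild types, and 15 were called higher in heart and 14 higher in kidney.

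The same comparison in knockout mice uses 6 other arrays. It called 22 of 30 genes tested, against 53.5% of all genes, with 12 higher in heart (27.7% of all genes) and 10 higher in kidney (25.8%). All 22 had been called in the same direction in wild types. P2ry10 was tested only because it was above background on all knockout hearts. Entpd3, Entpd8 and Acpp were tested only because they were above background on all knockout kidneys. Among the 26 genes above background on all 6 arrays, 20 were called, against 52.3% of all genes. With normexp 13 of 30 were called, against 17.7% of all genes. All 7 P2Y receptors were again called higher in heart (median 3.11), as were P2rx6, P2rx7, Entpd1, Entpd2 and Panx1. Of these 12, normexp left P2ry1, P2ry6, P2rx7, Entpd1, Entpd2 and Panx1 called, while P2ry2 (1.32), P2ry10 (2.10), P2ry12 (0.43), P2ry13 (0.56), P2ry14 (-0.24) and P2rx6 (0.16) were not. The knockout difference of P2ry10, 5.48, includes hearts a and b, on which T cell and thymocyte markers were high. P2rx4, Entpd4, Entpd5, Entpd7, Entpd8, all 3 ENPP genes, Nt5e and Pdzk1ip1 were again called higher in kidney. Of these 10, P2rx4, Entpd4, Entpd7 and Enpp2 lost the call with normexp (adjusted p = 0.055, 0.13, 0.30 and 0.22). Of the other pathway genes 40 were tested, with 15 higher in heart and 17 higher in kidney.

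Without normexp the size was close to that of the wild types for many genes. With normexp the knockout differences of P2ry13 (0.56 ± 0.81 against 1.96 ± 0.20 in wild types), P2ry12 (0.43 ± 0.84 against 1.77 ± 0.21) and P2rx6 (0.16 ± 0.80 against 1.33 ± 0.16) were smaller. Those of Entpd1 (1.83 against 2.46), Enpp3 (-2.95 against -3.30) and Entpd5 (-2.32 against -2.11) stayed closer. The tissue differences of P2ry13, P2ry12 and P2rx6 were not called different between genotypes with normexp (adjusted p = 0.76 in limma for each). P2ry13 was at -2.20, -2.29 and -2.56 on the knockout hearts and at -5.62, -6.09 and -6.26 on the knockout kidneys (3.64 ± 0.23), and P2ry12 at -2.74, -2.57 and -2.13 against -6.38, -5.53 and -5.95 (3.47 ± 0.28). Entpd1 was at 0.21, 0.45 and 0.60 against -2.09, -2.25 and -2.59 (2.73 ± 0.20). Enpp3 was at -2.17, -2.19 and -1.96 against 0.78, 1.58 and 1.78 (-3.49 ± 0.29). These groups did not overlap, and neither did those of P2rx6, at -2.65, -3.55 and -2.93 against -5.60, -5.33 and -5.77 (2.52 ± 0.28). Entpd5 was at 2.08, 1.84 and 2.43 against 4.80, 4.68 and 4.69 (-2.61 ± 0.20). Entpd8 was above background on 1 of 3 knockout hearts (heart a at -6.00, the others at -8.99 and -8.39). All 3 knockout kidneys were above background for it, at -0.48, -1.44 and -1.02. Without normexp Pdzk1ip1 was at least 163-fold higher in knockout kidney, and with normexp its difference was -6.84.

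A total of 4 genes were called in wild type and not in knockout mice: P2rx3, P2rx5, Acpp and Dpp4. P2rx5 gave 0.47 ± 0.29 (adjusted p = 0.21), P2rx3 0.25 ± 0.26 (adjusted p = 0.46), Acpp -3.10 ± 1.20 (adjusted p = 0.071; -1.61 and adjusted p = 0.0015 without knockout heart c) and Dpp4 -0.74 ± 0.33 (adjusted p = 0.11). The difference of the tissue effects is the same quantity as the difference of the knockout effects, and it was not called for any of the 4. The knockout calls of P2ry2 (1.35), P2ry14 (0.65) and Entpd4 (-1.26) lay near the threshold and were lost with several arrays left out in turn, at differences of 1.14 to 1.38, 0.54 to 0.67 and -1.31 to -0.96. P2ry14 lost its call without knockout heart a, b or c or knockout kidney b or c (adjusted p = 0.084, 0.062, 0.052, 0.091 and 0.10). P2ry2 lost it without knockout heart a or c or knockout kidney b or c (adjusted p = 0.055, 0.065, 0.070 and 0.073). Entpd4 lost it without knockout heart a or b or knockout kidney b or c (adjusted p = 0.083, 0.12, 0.11 and 0.12). Entpd7 lost it without knockout kidney c and Enpp2 without knockout heart b (adjusted p = 0.056 for each).

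Between genotypes no member was called. In heart 0 of 27 genes tested passed, where 0.619% of all genes did by limma. At an unadjusted p under 0.05 there were 9 of 27, against 16% of all genes. The 2 groups did not overlap for 9 of the 27, against 22.7% of all genes. Of the 27 differences 8 were above 0 and 19 below, with a median of -0.24 where that of all genes was -0.08. The SE ranged from 0.14 to 1.13 with a median of 0.24. With Xist signal as a covariate, or with only the arrays without it, the median of the members was -0.02. Both of these settings set knockout heart c alone against the wild type hearts. In heart each slide held 1 genotype, so slide and genotype cannot be told apart. Of the other pathway genes 0 of 38 were called in heart, 0 of 39 in kidney and 0 of 40 for the difference between tissues by limma, and 7, 6 and 7 had an unadjusted p under 0.05.

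**Figure D3:**
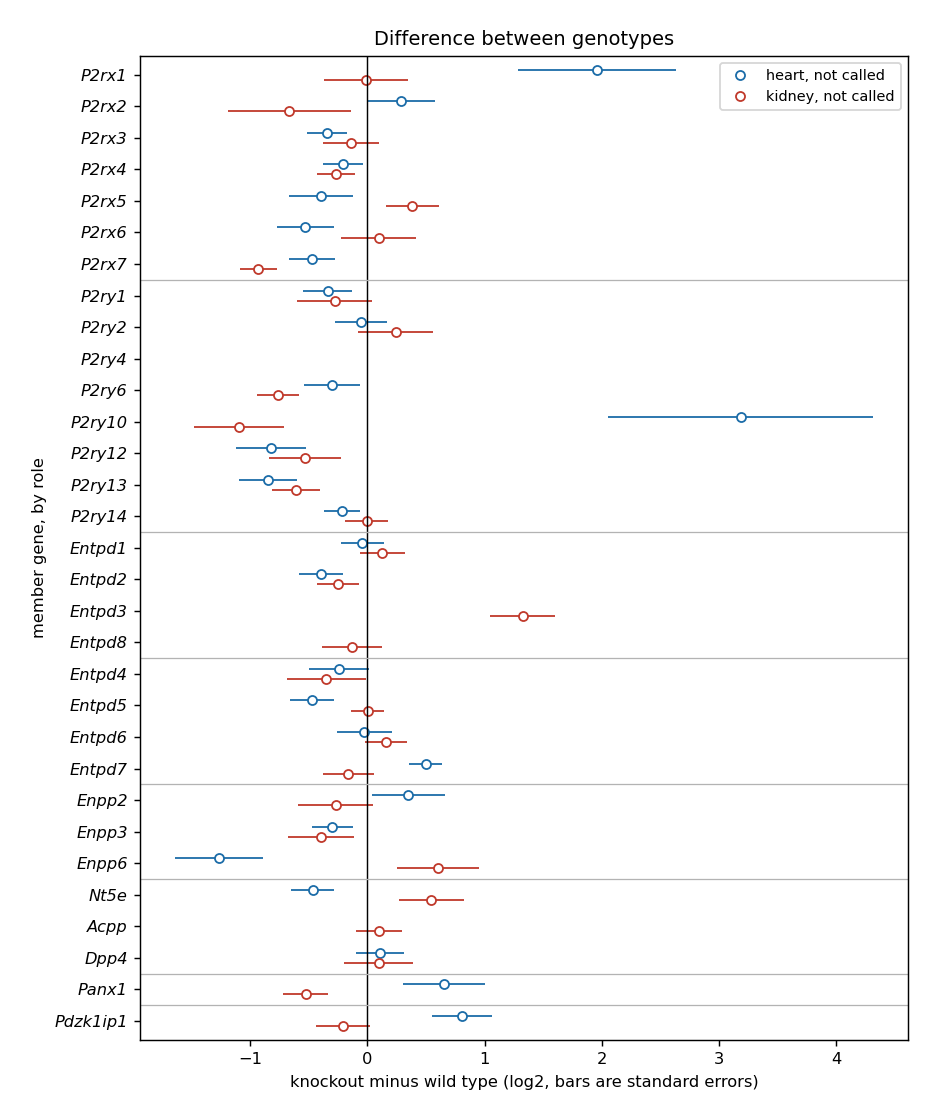
Knockout minus wild type (log2, x axis) for each gene (y axis, by role) in heart (blue) and kidney (red). Points are fitted differences over 3 arrays a group, bars are SE, and open points were not called. No point is filled. P2ry10 in heart has both the highest value, 3.18, and the longest bar in that tissue, 1.13.

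The 5 smallest p-values in heart belonged to Entpd7, P2ry13, Enpp6, Pdzk1ip1 and P2rx1. Entpd7 was at -3.51, -3.58 and -3.71 on the knockout hearts and at -3.93, -4.08 and -4.27 on the wild type hearts (0.50 ± 0.14, adjusted p = 0.24). For P2ry13 the knockout hearts, listed above, lay below the wild type hearts (-0.85 ± 0.25, adjusted p = 0.24). Both genes had groups that did not overlap, by a narrow margin. Enpp6 was at -5.09, -5.17 and -4.10 on the knockout hearts, below the wild types at -3.07 to -4.05 (-1.27 ± 0.37, adjusted p = 0.24). Pdzk1ip1 was at -0.57, -1.50 and -1.13 against -1.80, -2.05 and -1.77 (0.81 ± 0.25, adjusted p = 0.26), with the highest value on knockout heart a. Summed collecting duct markers (4 genes) were at 1.29, -0.66 and -1.02 on the knockout hearts, also highest on heart a, and at -1.97 to -1.35 on the wild type hearts. Of these genes Aqp3 (0.63) and Scnn1g (-0.47) were highest on knockout heart a. Aqp2 was lowest there, at -2.53, and Atp6v1g3 was not above background on any knockout heart. Lung markers were also high on that heart, with a median of 5.27. Summed proximal tubule markers spanned -0.99 to -0.37 on the knockout hearts and -1.13 to -0.58 on the wild type hearts. The part of any of these lists in the Pdzk1ip1 values was not tested.

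**Figure D4:**
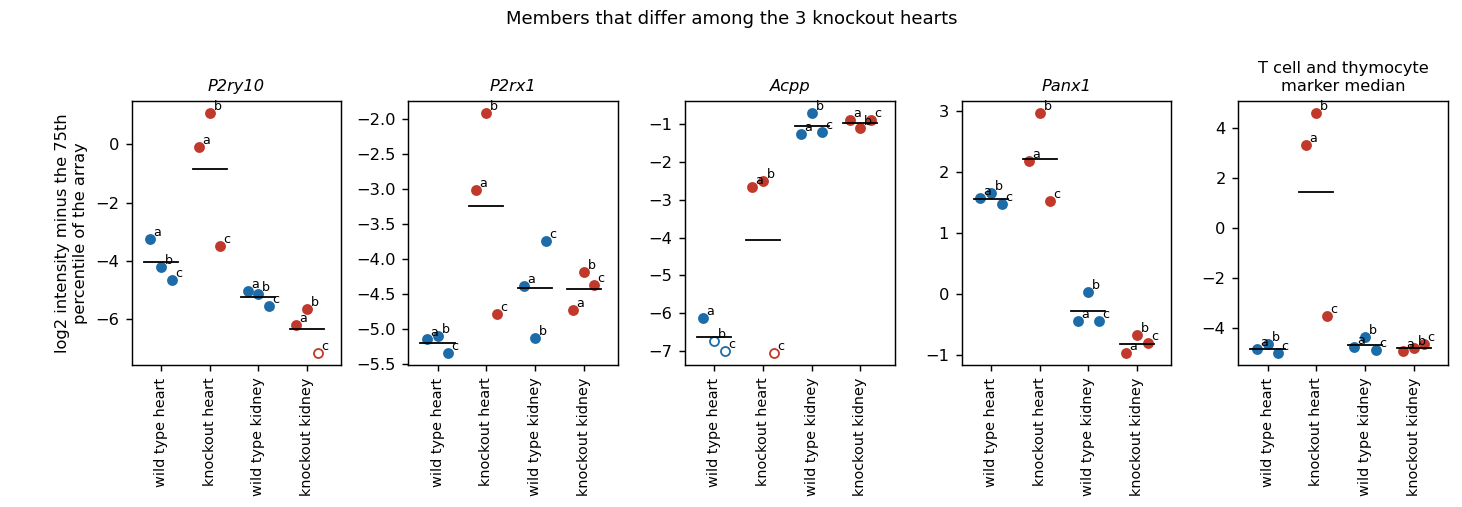
Values of P2ry10, P2rx1, Acpp and Panx1 on each array (log2 intensity minus the 75th percentile of the array, a separate y axis per panel), with the median of 9 T cell and thymocyte markers on the right. Letters name the arrays, lines are group means over 3 arrays, and open circles were not well above background. Knockout hearts a and b lie above the wild type hearts in all 5 panels. Knockout heart c lies at or near them in the gene panels and above them in the marker panel (-3.51 against -4.98 to -4.61).

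P2rx1 was at -3.01 (a), -1.92 (b) and -4.79 (c) on the knockout hearts, against -5.14, -5.11 and -5.35 on the wild type hearts (1.96 ± 0.68, adjusted p = 0.28). Knockout hearts a and b carried this difference. P2ry10 showed the same split, at -0.11, 1.05 and -3.48 against -3.24, -4.21 and -4.64 (3.18 ± 1.13, adjusted p = 0.29). Acpp was at -2.66, -2.50 and -7.05 against -6.12, -6.74 and -6.99, was above background on 2 of 3 knockout hearts and was not tested in heart with all arrays. Panx1 was at 2.17, 2.96 and 1.52 against 1.57, 1.65 and 1.47 (0.66 ± 0.35, adjusted p = 0.37). The heart values of P2ry10, Acpp and Panx1 were chosen for description after they were seen.

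Without knockout heart c, 4 of 29 members tested were called in heart, a share close to the 13% of all genes then called. These were P2ry10 (4.50 ± 0.53, adjusted p = 0.0086), Acpp (4.04 ± 0.28, adjusted p = 0.0022), P2rx1 (2.74 ± 0.34, adjusted p = 0.0099) and Enpp6 (-1.61 ± 0.30, adjusted p = 0.031). Acpp entered this fit only through these 2 knockout hearts, where it is bright, and was above background on 1 of 3 wild type hearts, so its difference is not a measured level on both sides. Leaving out any other heart array called no member. The 2 knockout hearts that remain are those with Xist signal and with the T cell and thymocyte markers given above. On the wild type hearts Rag1 and Ptcra, which are made by developing T cells, were not above background. The summed level of the 9 markers was 6.75 and 7.82 on these 2 hearts, 0.61 on knockout heart c and between -0.16 and 0.91 on the wild type hearts. Their part in the values of P2ry10, P2rx1, Acpp and Panx1 was not tested. With the arrays without Xist signal alone, or with Xist signal as a covariate, the heart comparison sets knockout heart c alone against the wild type hearts. Neither setting can thus show whether a member differs between genotypes in heart.

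In kidney 0 of 30 genes tested were called between genotypes, where 0.0639% of all genes were by limma. At an unadjusted p under 0.05 there were 6 of 30, against 13.3% of all genes, and groups did not overlap for 7 of 30, against 22% of all genes. Of the 30 differences 11 were above 0 and 19 below, with a median of -0.15 where that of all genes was -0.08. With normexp these medians turned to 0.295 and 0.071. SE ranged from 0.14 to 0.53. The groups of the following 5 genes, those with the smallest p in kidney, did not overlap.

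P2rx7 came closest to a call. It was at -1.99, -2.12 and -1.90 on the knockout kidneys and at -1.25, -0.96 and -1.01 on the wild type kidneys (-0.93 ± 0.16, adjusted p = 0.087), and each of the 18 alternative settings gave a lower value in knockouts without a call. P2ry6 was at -1.75, -1.29 and -1.44 against -0.85, -0.60 and -0.73 (-0.76 ± 0.18, adjusted p = 0.15). P2ry13 was at -5.62, -6.09 and -6.26 against -5.44, -5.26 and -5.43 (-0.61 ± 0.20, adjusted p = 0.27). All 3 are receptors known from macrophages. P2ry10 was at -6.18, -5.64 and -7.15, with the last not above background, against -5.03, -5.12 and -5.53 (-1.10 ± 0.39, adjusted p = 0.30). With normexp the values of P2ry13 and P2ry10 were above 0, at 0.75 and 0.62, without a call. Entpd3, a surface enzyme of epithelium and neurons, ran the other way, at -4.34, -5.00 and -5.40 in knockouts and at -6.33, -6.24 and -6.14 in wild types, above background on 2 of 3 wild type kidneys (1.32 ± 0.28, adjusted p = 0.13). Entpd3 was tested only because it was above background on all 3 knockout kidneys, and P2ry10 only because it was on all 3 wild type kidneys.

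**Figure D5:**
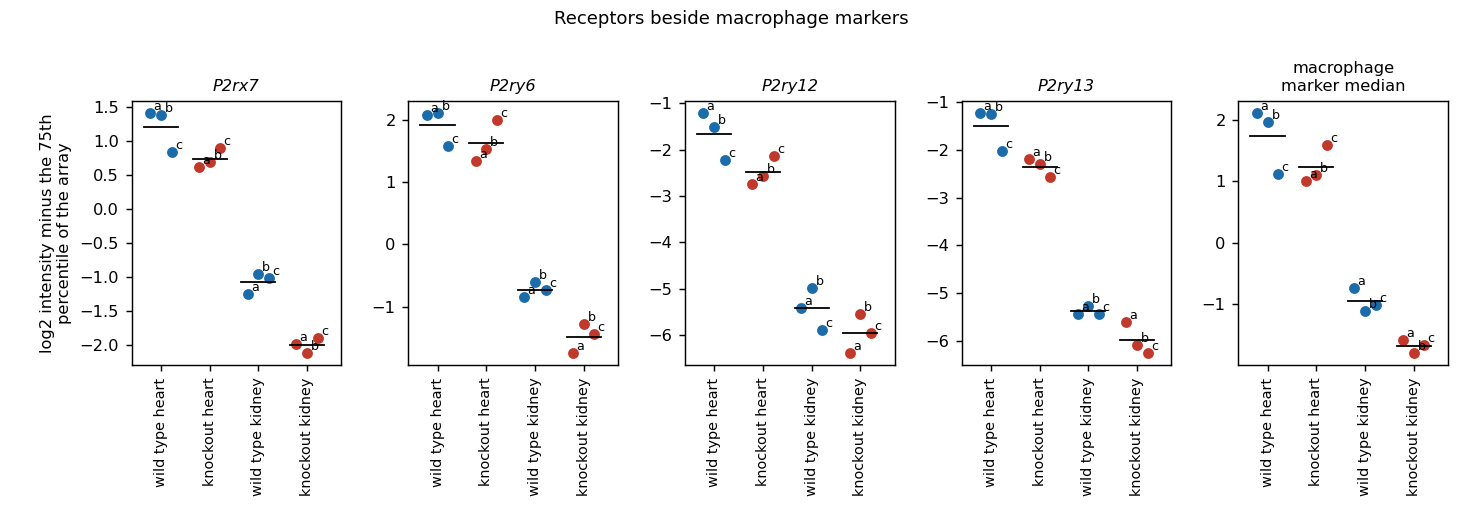
Values of P2rx7, P2ry6, P2ry12 and P2ry13 on each array (log2 intensity minus the 75th percentile of the array, a separate y axis per panel), with the median of 7 macrophage markers on the right. Letters name the arrays and lines are group means over 3 arrays. In kidney the knockout arrays lie below the wild type arrays for P2rx7, P2ry6, P2ry13 and the marker median.

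In kidney the macrophage marker median moved with these receptors. The median of the 7 markers was -0.73, -1.12 and -1.01 on wild type kidneys a, b and c and -1.60, -1.80 and -1.68 on the knockout kidneys. In heart it was 2.11, 1.98 and 1.12 on the wild types and 1.01, 1.10 and 1.60 on the knockouts. Wild type heart c, with the lowest marker median of its group, was also the lowest of its group for P2rx7, P2ry6, P2ry12 and P2ry13. Knockout heart c, with the highest marker median of its group, was the highest of its group for P2rx7, P2ry6 and P2ry12 and the lowest for P2ry13. Of the 7 markers 0 were called between genotypes in either tissue, with differences below 0 for 7 of 7 in heart and 6 of 7 in kidney. Csf1r ran the other way in kidney, at 1.77, 1.36 and 1.46 in knockouts and at 1.19, 1.08 and 1.25 in wild types. At an unadjusted p under 0.05 in limma there were 1 of 7 in heart and 5 of 7 in kidney. All 7 were above background in every group. The part of macrophages in the receptor values was not tested.

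The receptors on these arrays gave values in heart between genotypes that were also mostly below 0. P2rx7 was at 0.62, 0.69 and 0.90 on the knockout hearts (-0.47 ± 0.20, adjusted p = 0.31), P2ry6 at a mean of 1.62 ± 0.34 (SD, n = 3) (-0.30 ± 0.24, adjusted p = 0.50) and P2ry12 differed by -0.82 ± 0.30 (adjusted p = 0.29). Nt5e, at -0.24, -0.48 and -0.26 on the knockout hearts and 1.55, 2.04 and 2.59 on the knockout kidneys, gave -0.47 ± 0.18 in heart (adjusted p = 0.30) and 0.54 ± 0.28 in kidney (adjusted p = 0.46). These 2 values of CD73 have opposite signs, and the test of their difference is given below.

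Whether the knockout effect differed between heart and kidney was tested in 1 model over all 12 arrays. No member was called among 30, where 0.627% of all genes were by limma, and 7 of 30 had an unadjusted p under 0.05, against 14.6% of all genes. The smallest p-values were those of Enpp6 (-1.87 ± 0.56, adjusted p = 0.19) and P2ry10 (4.28 ± 1.32, adjusted p = 0.19), followed by Nt5e (-1.01 ± 0.35, adjusted p = 0.24), Pdzk1ip1 (1.02 ± 0.36, adjusted p = 0.24) and Panx1 (1.18 ± 0.43, adjusted p = 0.25). The other probe of Enpp6, above background on all 12 arrays, gave -0.56 in heart and -0.30 in kidney, against -1.27 and 0.60 for the reported one. A positive value means that knockout minus wild type was higher in heart than in kidney. The value of Pdzk1ip1 includes its saturated kidney spots. Without knockout heart c the model called 5 of 30 members, against 8.01% of all genes: P2ry10 (5.60), Acpp (3.93), P2rx1 (2.75), Panx1 (1.53) and Enpp6 (-2.21).

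Knockout kidney a differed from knockout kidneys b and c in several members. It is the only kidney with Xist signal and was alone on its slide. P2ry2 was at 1.34 on it and at 0.16 and 0.28 on b and c, with the wild type kidneys at 0.24 to 0.45. Dpp4 was at 2.58 on it and at 1.62 and 1.56 on b and c, with the wild types at 1.69 to 1.99. Entpd4 was lower on it, at 1.41 against 2.32 and 2.75, and so was Enpp3, at 0.78 against 1.58 and 1.78. For 4 members this array was the highest of all 6 kidneys by more than 0.5 (P2rx5, P2ry2, Entpd3 and Dpp4), and for 3 the lowest (P2rx2, Entpd4 and Enpp3). Without it, no member was called between genotypes in kidney. The parts of sex, slide and genotype in these values were not tested.

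The remaining members gave small values between genotypes. P2rx4 differed by -0.21 ± 0.17 in heart and -0.27 ± 0.16 in kidney, Entpd1 by -0.04 ± 0.18 and 0.13 ± 0.19, and Entpd2 by -0.40 ± 0.19 and -0.25 ± 0.18. Enpp3 differed by -0.30 ± 0.18 in heart and -0.39 ± 0.28 in kidney. Even the -0.93 ± 0.16 of P2rx7 in kidney missed the threshold, so smaller differences with SEs of this size were not detectable at this number of arrays. P2rx3, P2rx5, P2rx6, P2ry1, P2ry2, P2ry14, Entpd4, Entpd5, Entpd6, Enpp2 and Dpp4 lay between -0.53 and 0.38 in both tissues. P2rx2 gave 0.29 ± 0.29 in heart and -0.67 ± 0.53 in kidney. In kidney Enpp6 gave 0.60 ± 0.35, Panx1 -0.53 ± 0.19 and P2ry12 -0.53 ± 0.31, while P2rx1 (-0.01 ± 0.36) and Entpd7 (-0.16 ± 0.22) lay near 0. In kidney Entpd8 differed by -0.13 ± 0.26 and Acpp by 0.10 ± 0.20, while Pdzk1ip1 was saturated in both genotypes.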

How the data were processed

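Total RNA of 12 tissue samples was hybridised to 12 one-colour Agilent mouse arrays on 4 slides. Per the file headers, each spot's intensity was extracted with version 9.5.3.1 of Agilent's Feature Extraction (9.1 in the submitters' processing notes), with the background subtracted and the array detrended. The same deposited files give flags, a yes or no per spot, for signal well above background and for saturation. The authors also deposited a table of log2 values, centred per tissue. Each of its columns followed the scanner values of the array of the other genotype with the same letter and tissue (r from 0.9998 to 1.000), and its column medians ran from -0.17 to 0.20, so it served only as an alternative, with columns matched to the arrays they follow.

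Outlier spots were left out, replicate spots averaged, log2 taken and the 75th percentile of each array set to 0. The 41174 probes were named by accession, symbol or synonym, and the probe with the highest mean stood for a gene. A gene entered a test when every array of at least 1 of the groups compared had its probe well above background. Limma 3.58.1 in R 4.3.3 fitted each comparison over the 3 arrays of each group, without covariates, with p-values adjusted over all genes tested (Benjamini-Hochberg). The script was tested on simulated data. Marker and pathway lists, the members and the rule for full values (the 5 smallest p in each comparison between genotypes and the 12 largest called tissue differences in wild types) were chosen with earlier results of these data known.

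The letters were checked as pairs. Hearts of the same letter deviated together across genotypes (r = 0.39, 0.21 and 0.27 over 14952 genes), so a fit with the letter as a replicate block is an alternative that counts for heart. Kidneys (0.13, 0.02 and -0.14) and the 2 tissues of a genotype (from -0.07 to 0.04) did not. The p-values measure the spread between these samples. The file headers give mm7 as the build of the coordinates, and gene structure around a probe is not analysed here.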

Additional observations from a re-analysis of the deposited data

How the results depend on the processing

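The alternatives were another background correction (normexp with an offset of 50), median or quantile scaling, other filters, the mean of a gene's probes, the letters as a replicate block, the slide, Xist signal, the deposited table and each array left out. Over all members tested, tissue differences kept direction and side of the threshold in 811 cases, lost the call in 47, gained one in 12 and reversed in 1 (P2ry14 in knockouts, at -0.24 under normexp), and uncalled ones changed sign in 8. Under normexp 13 members were called between tissues in knockouts in place of 22, and the cause was not tested. Values between genotypes, none called, kept direction in 883 cases and gained a call in 3 (Acpp, not tested in heart with all arrays, aside). In 83 cases, over 26 values (12 of the cases under normexp), they changed sign, so the direction of a small value between genotypes depends on the setting. For the difference between tissues these counts were 604, 5 and 46. Leaving out arrays gave 0 to 4 members called in heart and 0 to 5 for the difference between tissues, where only the fits without knockout heart c called any, and 18 to 22 between tissues in knockouts and 24 to 27 in wild types. With the replicate block 25 and 21 members were called between tissues in wild types and knockouts, and 0 in heart, in kidney and for the difference, so pairing the hearts changed no member's call between genotypes. P2rx3 in wild types and P2ry14 in knockouts lost the tissue call with it (adjusted p = 0.055 and 0.050). With the slide as a random block the tissue counts were 26 and 19. That block cannot separate slide from tissue, because no slide held both tissues of the same genotype. Within the slide that holds both kidney genotypes 0 members were called. Counts over all genes moved more. In heart 108 genes were called, 16 with normexp and 2371 without knockout heart c. In kidney 11 were called, 218 with the slide as a block and 0 with normexp. Median scaling moved the median of all genes from -0.08 to -0.23 in heart and from 0.04 to -0.23 between tissues in knockouts, and the share of called genes higher in heart there from 51.8% to 41.5% (40.6% with normexp). For the difference between tissues that share went from 88.8% to 76.8%. Xist settings were not run for the wild type tissue comparison, where no array has Xist signal, nor the slide block in heart or the table across tissues. Dim probes limit what the hearts can show for Entpd8, Acpp and Entpd3, and saturation what the kidneys can show for Pdzk1ip1.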
